A study of Mus musculus with 23 samples.

Results

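The 6 libraries described here are the untreated wild-type (WT) cultures of R1, a mouse embryonic stem cell (ESC) line, out of 23 libraries in the series. They were chosen by their titles: 2 libraries belong to set 1 (codes 1a and 1b) and 4 to set 2 (codes 2a and 2b, 2 libraries each). All 6 are labelled as genotype Wt with no treatment, and all were grown on mouse embryonic fibroblast (MEF) feeder plates in DMEM with 15% fetal bovine serum and leukemia inhibitory factor (LIF). For comparison, the 10 untreated R1 libraries labelled SET-/- (KO) were used, 4 in set 1 and 6 in set 2. They hold the lines KO1 and KO2 and were grown in the same medium on MEFs. Transcript of Set, the targeted gene, was higher in set 2 of KO, so set and Set level cannot be told apart there. The labels do not say what separates the sets, so culture, passage, date, library preparation and sequencing cannot be told apart as the source of a set difference. They also do not say whether libraries of 1 set came from separate cultures, so p-values speak to the spread among these libraries alone, which may be technical. The polyA RNA was counted by QuantSeq, which reads 1 short tag near the 3′ end of each transcript, so a count does not grow with transcript length.

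ESCs stand for the pluripotent cells of the early embryo and keep this state through a network of transcription factors led by Pou5f1 (Oct4), Sox2 and Nanog, with Klf4, Tbx3 and Esrrb acting downstream of LIF. Serum-grown cultures are mixed: single cells drift between a naive state and states closer to differentiation, and feeder fibroblasts add their own RNA. The smooth muscle actin gene Acta2 is driven by serum response factor (SRF) and marks activated fibroblasts and contractile cells, Col1a1 encodes the main collagen of fibroblast matrix, and Mdm2 encodes the ubiquitin ligase that removes p53 and is itself a p53 target.

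Promoter sequences of 2 genes on which the description turns are shown because each holds letters that a factor named below is known to bind. They are taken from RefSeq on GRCm38.p6 and run 5′ to 3′ from 250 bases before to 50 bases after the gene's start. For Acta2 capitals mark CArG boxes, the SRF motif, each with 1 C or G among the 6 inner bases that are A or T in the full motif. Cyp26a1 encodes an enzyme that degrades retinoic acid. Its capitals mark a direct repeat of AGTTCA spaced by 5 bases (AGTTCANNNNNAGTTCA read on the opposite strand), a form bound by retinoic acid receptors.
Acta2, chr19:34255324-34255623, minus strand: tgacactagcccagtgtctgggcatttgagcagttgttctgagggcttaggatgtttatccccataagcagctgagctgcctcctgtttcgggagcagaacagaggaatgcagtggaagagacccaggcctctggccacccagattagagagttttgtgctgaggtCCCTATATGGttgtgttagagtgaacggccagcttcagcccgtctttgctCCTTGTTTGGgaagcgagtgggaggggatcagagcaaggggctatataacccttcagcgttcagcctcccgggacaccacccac
Cyp26a1, chr19:37697558-37697857, plus strand: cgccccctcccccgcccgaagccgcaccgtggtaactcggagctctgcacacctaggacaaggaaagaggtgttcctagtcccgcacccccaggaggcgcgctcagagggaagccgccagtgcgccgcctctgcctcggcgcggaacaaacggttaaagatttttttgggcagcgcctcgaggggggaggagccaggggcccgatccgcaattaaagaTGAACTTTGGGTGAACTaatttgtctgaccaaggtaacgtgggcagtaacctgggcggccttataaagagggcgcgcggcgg
Both strands were searched, and the looser CArG motif includes every full one. Of 32851 promoters of the same length, 1.63% held the full CArG box and 9.98% the CArG box with up to 1 C or G inside. The direct repeat was held by 0.0244%, which is 8 promoters. It was searched only in the half-site letters of the Cyp26a1 site, so its share is no background for looser repeats. Of 35 promoters of the contractile gene list, 8 held the full CArG box and 10 the looser one, Acta2 among the latter only. A match describes letters and not a bound site.

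The 2 sets stood far apart. The set 1 libraries held 1104278 and 1080040 counts and those of set 2 between 1475892 and 7941952. At these depths 3 counts, the floor used below for a gene with 0 counts, correspond to between 0.378 and 2.78 CPM (counts scaled to library size) in 1 library. All CPM values are also scaled for composition by TMM (the trimmed mean of M-values) over the 6 WT libraries. Correlations of log2 CPM over genes ran from 0.798 to 0.864 between sets and from 0.957 to 0.980 within a set, and the first principal component, which separated the sets, held 74.5% of the variance. Within set 2, replicates 1 and 3 correlated at 0.980 and replicates 2 and 4 at 0.976, whereas the libraries that share code 2a correlated at 0.957 and those of 2b at 0.968. No pair of libraries agreed within sampling noise by a chi-square test, and each was kept as its own replicate, as titled. That test cannot tell separate cultures from repeat libraries of 1 culture. Its statistic per degree of freedom was 2.08 for replicates 1 and 3 and 1.84 for 2 and 4. Other set 2 pairs ran from 4.96 to 9.88. Were these 2 pairs repeats, the 4 set 2 libraries would overstate the replication, and libraries were not summed by these pairs. X- and Y-linked genes, which took between 2.52% and 2.95% of counts, were left out, and mitochondrial genes had 0 counts in the files.

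Of 10086 autosomal genes tested, 2115 (21.0%) were higher and 1886 (18.7%) lower in set 2 at an adjusted p under 0.05 in edgeR's quasi-likelihood test, together 39.7%. Changes over 2-fold made up 12.7% of tested genes upward and 9.82% downward. For 29.4% of the genes all 4 set 2 libraries lay above both set 1 libraries, and for 27.9% all lay below. The median log2 difference over all genes was 0.01. Without set 1 replicate 1 the count of called genes was 2173 in place of 4001. These shares are the background against which the WT lists below are read. For the KO lists the shares over all tested genes were 25.5% higher and 23.7% lower. A gene near 0 in either set can enter the test through the other alone, so a list's share may lean to that set.

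**Figure D1:**
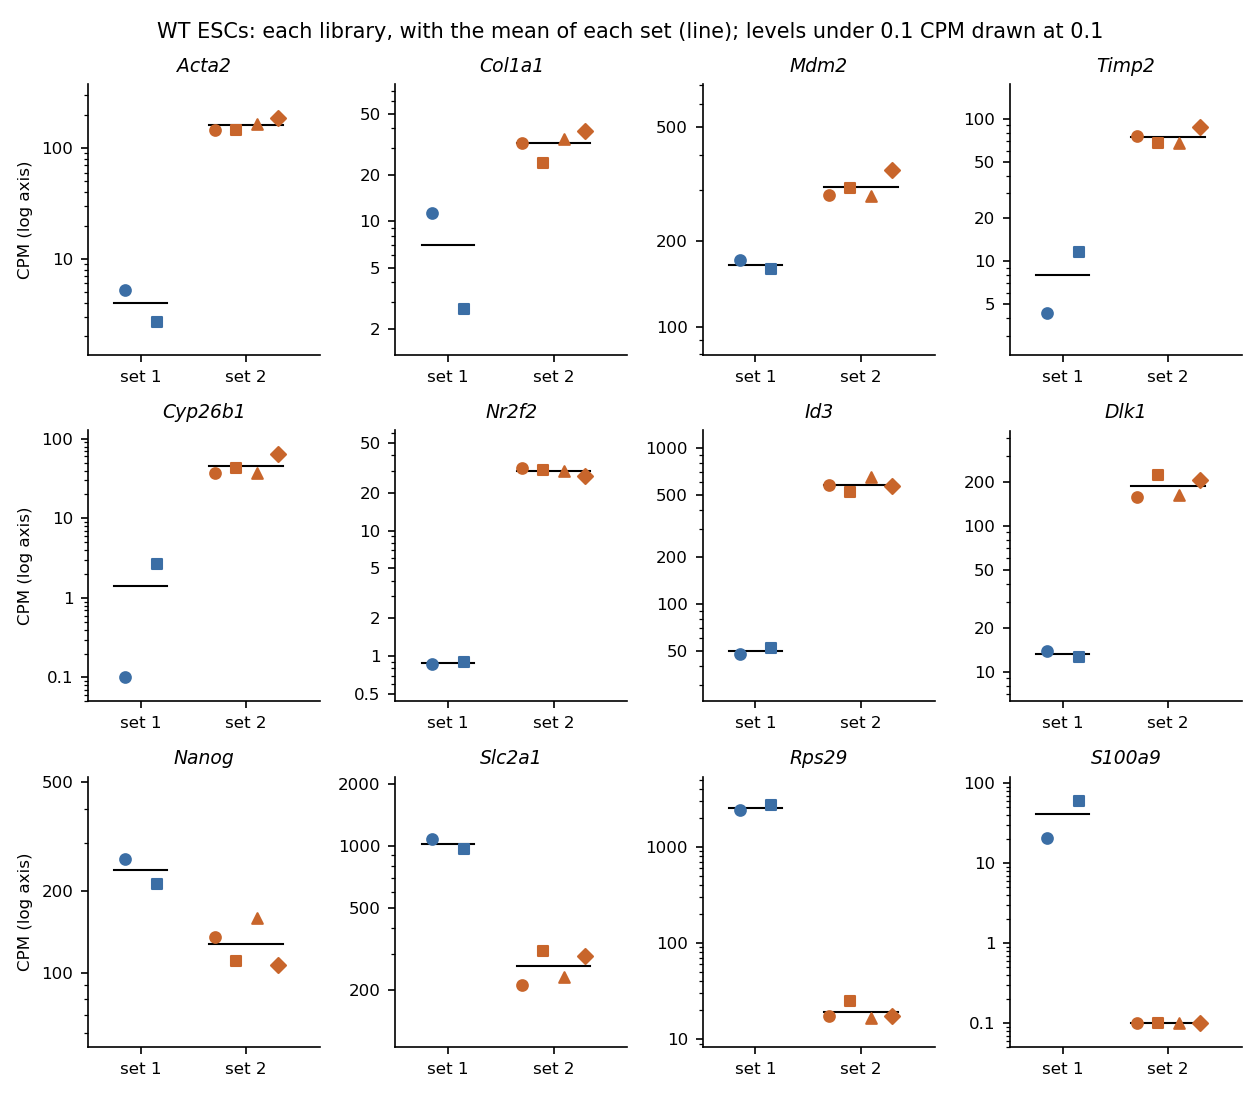
Level of 12 genes in each WT library, in CPM on log axes that differ between panels. Blue points are set 1 and orange points set 2, black lines are set means, and values under 0.1 CPM are drawn at 0.1. In every panel the 4 set 2 libraries lie wholly above or wholly below the 2 set 1 libraries. Cyp26b1, Nr2f2, Rps29 and S100a9 were named by a rule that required this, and Acta2, a marker, also met that rule.

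Acta2 was higher in set 2 by a wide margin. The gene (chr19:34241090-34255590, minus strand, GRCm38) stood at 5.24 and 2.69 CPM in set 1 and 147, 145, 164 and 188 CPM in set 2 (log2 difference 5.33, SE 0.30, adjusted p = 1.3e-09). Every set 2 library was above both set 1 libraries, by a margin far over the spread within either set. In the KO libraries Acta2 was already at 115 ± 5.18 CPM in set 1 (SD, n = 4) and 256 ± 52.3 CPM in set 2 (SD, n = 6) (log2 difference 1.14, SE 0.14, adjusted p = 8.5e-07). The set difference was larger in WT than in KO by 4.17 on the log2 scale, adjusted p = 2.0e-07. In bulk RNA, fewer cells of a type and less RNA per cell cannot be told apart, here and for all genes below.

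Col1a1 (chr11:94936224-94953042, plus strand) was measured at 11.4 and 2.69 CPM in set 1 and 32.1, 23.7, 34.3 and 38.6 CPM in set 2 (log2 difference 2.19, SE 0.41, adjusted p = 5.3e-04). The 2 set 1 libraries lay further apart in ratio than any pair of set 2, and the sets did not overlap. KO libraries held 55 ± 8.77 CPM in set 1 (SD, n = 4) and 56 ± 9.22 CPM in set 2 (SD, n = 6) (log2 difference 0.02, SE 0.15, adjusted p = 0.92). The set difference in WT exceeded that in KO by 2.15 on the log2 scale, adjusted p = 0.009. Mdm2 (chr10:117688875-117710758, minus strand) was at 171 and 159 CPM in set 1 and 289, 307, 287 and 352 CPM in set 2 (log2 difference 0.90, SE 0.16, adjusted p = 2.6e-04), again with no overlap. Its set difference was of like size in KO (0.76, adjusted p = 5.1e-05), and the 2 genotypes did not differ past the threshold (0.12 on the log2 scale, adjusted p = 0.89).

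Genes of fibroblast matrix, the collagens, crosslinking enzymes and matrix proteins that feeders and mesenchymal cells secrete, were mostly higher in set 2. In this list 13 of 24 tested members were higher and 1 lower in set 2, with a median log2 difference of 1.24. This compares with 21.0% higher and 18.7% lower over all genes. Tnc, encoding the matrix protein tenascin-C, stood at 2.62 and 0.896 CPM in set 1 and 38.6, 20.1, 34.8 and 20.3 CPM in set 2 (log2 difference 3.99, SE 0.57, adjusted p = 4.8e-05). Serpinh1, a collagen chaperone that ESCs also express, was at 83.8 and 100.4 CPM in set 1 and 385, 437, 356 and 492 CPM in set 2 (log2 difference 2.18, SE 0.19, adjusted p = 2.0e-07). S100a4, a calcium-binding protein known from fibroblasts, was at 3.49 and 0.896 CPM in set 1 and 76.5, 46.8, 63.4 and 48.7 CPM in set 2 (log2 difference 4.7, SE 0.45, adjusted p = 9.0e-07), although 52.5% of its 3′ sequence words occur in other genes. Col3a1 had 1 count in set 1 and 120 in set 2, a count ratio of 19.5 with a 95% counting interval of 3.43 to 775. For Col1a2, with 3.49 and 4.48 CPM in set 1 and 19.7, 8.51, 17.1 and 9.65 CPM in set 2, the call (1.8, adjusted p = 0.012) was lost without either set 1 library, at adjusted p = 0.13 without replicate 1 and 0.058 without replicate 2. Vim was the member called lower (-0.46, adjusted p = 0.048). In KO the list showed 10 higher and 6 lower of 31 tested, median 0.02, against 25.5% and 23.7% over all genes in KO.

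The 10 markers that tell feeder fibroblasts from ESCs include Col1a1, Col1a2 and Col3a1, so their sum is not separate from the genes above. It was 28.8 and 15.2 CPM in set 1 and 70.7, 55.3, 83.8 and 77.7 CPM in set 2. Of the 4 markers with enough counts to test, the 3 called, all higher, were these collagen genes. The other markers were not summed apart. The defining genes Lum, Dcn and Postn were at 0 in both set 1 libraries, with Lum at 0 in set 2 as well. In KO the sum lay between 82.9 and 114 CPM in set 1 and between 101.0 and 145 CPM in set 2. The summed ESC markers were 4479 and 3849 CPM in set 1 and 3155, 2768, 3209 and 2698 CPM in set 2, with 6 of 10 called lower and 1 higher. The part of feeder RNA in the matrix genes was not tested.

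The list of contractile and cytoskeletal genes that SRF is known to drive had the same direction in WT. There, 12 of 25 tested members were higher and 2 lower in set 2, with a median log2 difference of 0.69. A list of 18 endothelial and muscle markers summed to 122 and 141 CPM in set 1 and 216 to 271 CPM in set 2. In it 2 of 4 tested members were called higher. A shorter group of 6 such markers overlapped between sets, with 1 tested and 0 called. Its sum was 10.5 and 20.6 CPM in set 1 and 32.1, 26.8, 18.5 and 25.1 CPM in set 2. The part of such cells in the contractile genes was not tested. Csrp1, a muscle LIM protein, was at 15.7 and 21.5 CPM in set 1 and 72.1, 76, 65.6 and 80.1 CPM in set 2 (log2 difference 1.97, SE 0.24, adjusted p = 8.6e-06). Tpm1, an actin-binding tropomyosin, was at 197 and 192 CPM in set 1 and 338, 395, 344 and 352 CPM in set 2 (log2 difference 0.88, SE 0.15, adjusted p = 2.0e-04). Acta1, the skeletal muscle actin, had 1.75 and 0 CPM in set 1 and 10.9, 18.9, 12.1 and 17.4 CPM in set 2 (log2 difference 3.97, SE 0.71, adjusted p = 3.6e-04). Srf itself and Actn4 were the 2 members called lower, at log2 -1.49, adjusted p = 0.01 for Srf. Tagln, a classic SRF target, was not called (6.99 and 3.58 CPM in set 1 and 10.2, 14.6, 9.34 and 12.1 CPM in set 2, log2 difference 1.08, adjusted p = 0.07), and 65.1% of its 3′ words are shared.

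In KO libraries more of these contractile genes were called lower than higher, with 6 higher and 15 lower of 30 tested, median -0.48. Over all tested genes in KO, 25.5% were higher and 23.7% lower. For Tpm1 the KO means were 1418 ± 87.4 CPM in set 1 (SD, n = 4) and 633 ± 109.8 CPM in set 2 (SD, n = 6). The WT minus KO difference was 2.02 on the log2 scale, adjusted p = 2.3e-06 for Tpm1 and 1.79 on the log2 scale, adjusted p = 4.9e-04 for Csrp1. Targets of YAP and TEAD, which respond to spreading and stiffness, included Ccn2 at 62.9 and 72.6 CPM in set 1 and 274, 211, 374 and 302 CPM in set 2 (log2 difference 2.11, SE 0.23, adjusted p = 3.6e-06) and Ccn1 (1.6, adjusted p = 7.8e-04). The call for Ccn1 was lost under 1 of its 20 alternative settings, the fit of all 16 untreated R1 libraries together (adjusted p = 0.26). In that list 6 of 20 tested members were higher and 1 lower in set 2, with a median log2 difference of 0.12. Simple-epithelium keratins were higher as well: Krt8 stood at 4.37 and 7.17 CPM in set 1 and 18.2, 23.7, 23.1 and 21.2 CPM in set 2 (log2 difference 1.91, SE 0.37, adjusted p = 6.8e-04) and Krt18 at 7.86 and 11.6 CPM in set 1 and 25.5, 32.2, 24.8 and 29.4 CPM in set 2 (log2 difference 1.5, SE 0.32, adjusted p = 0.0013), while in KO both were lower in set 2 (Krt8 -0.50, adjusted p = 0.02, Krt18 -1.34, adjusted p = 1.5e-05).

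**Figure D2:**
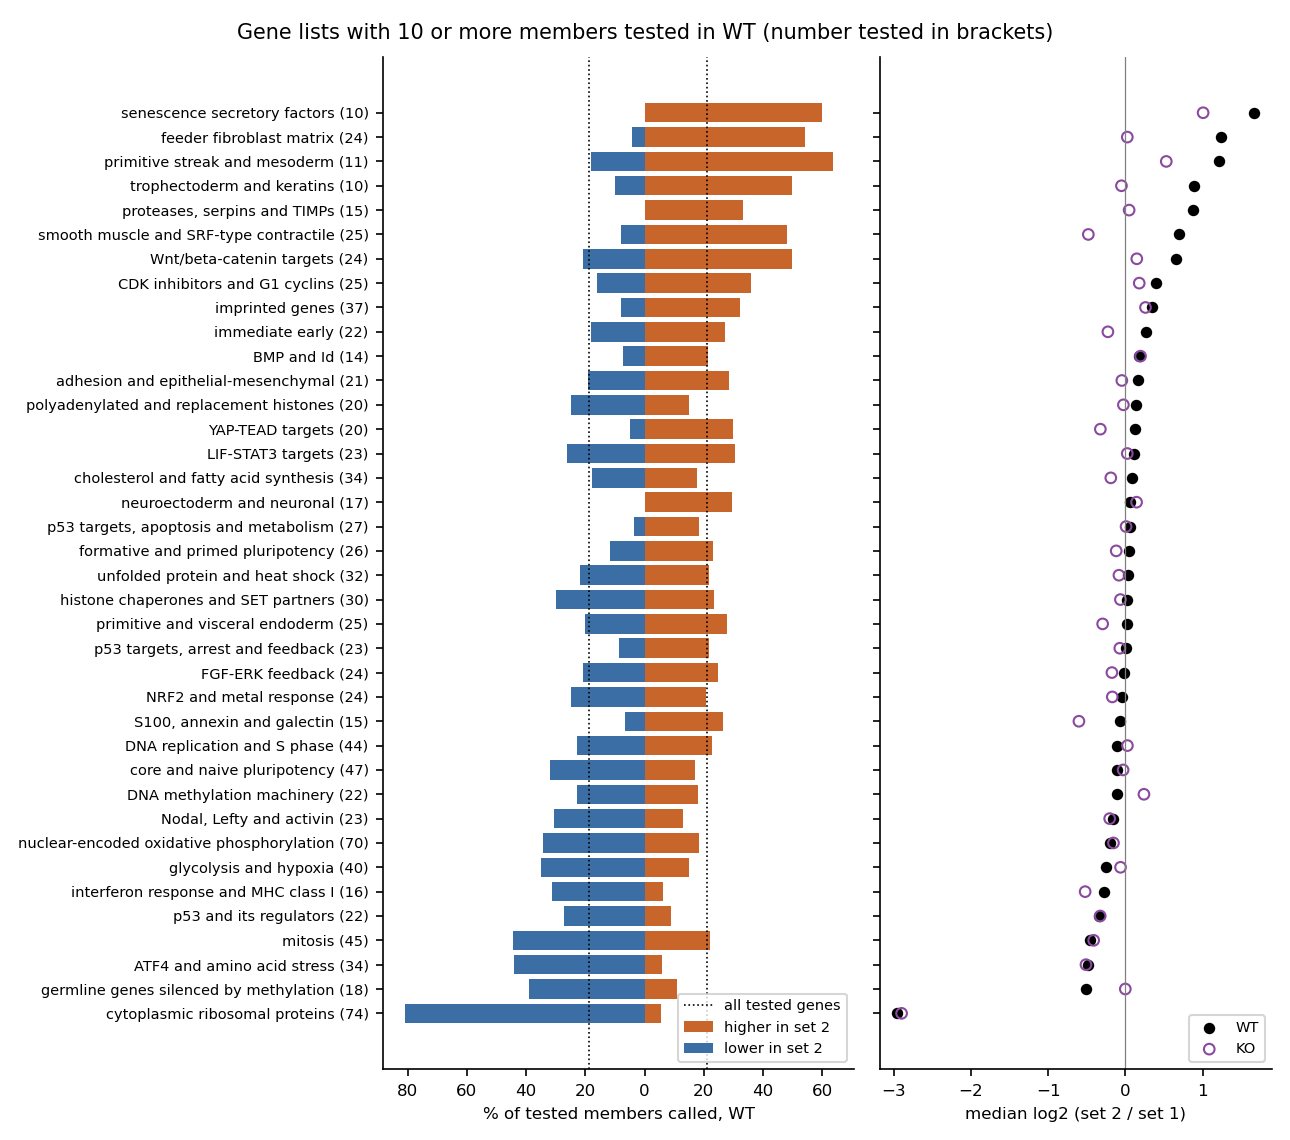
Left, percent of each list's tested members called higher (orange, right of 0) or lower (blue, left of 0) in set 2 WT, with dotted lines at the 21.0% and 18.7% of all tested genes. Right, median log2 set difference of the list in WT (filled) and KO (open); fibroblast matrix lies at 1.24 in WT and 0.02 in KO, contractile genes at 0.69 and -0.48, and ribosomal proteins at -2.95 and -2.90.

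Timp2, an inhibitor of matrix proteases, stood at 4.37 and 11.6 CPM in set 1 and 75.8, 67.5, 67.8 and 87.3 CPM in set 2 (log2 difference 3.21, SE 0.32, adjusted p = 1.2e-06), and Lgals1, encoding the lectin galectin-1, at 44.5 and 44.8 CPM in set 1 and 189, 179, 178 and 197 CPM in set 2 (log2 difference 2.05, SE 0.18, adjusted p = 2.1e-07). Both were above every set 1 library in all of set 2, and both set differences exceeded those in KO, by 2.21 on the log2 scale, adjusted p = 0.0011 for Timp2 and by 1.58 on the log2 scale, adjusted p = 1.3e-04 for Lgals1. Among secreted factors of the senescence programme 6 of 10 tested members were higher and 0 lower in set 2, with a median log2 difference of 1.67. Examples were Igfbp2, an insulin-like growth factor carrier, at 328 and 312 CPM in set 1 and 691, 951, 576 and 1017 CPM in set 2, and Tgfb2, a transforming growth factor, at 6.11 and 0 CPM in set 1 and 17.5, 21.9, 16.8 and 26.5 CPM in set 2 (log2 2.7, adjusted p = 0.0021). The KO libraries showed 6 higher and 0 lower of 15 tested, median 1.01 for that list (25.5% and 23.7% over all genes in KO).

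Set, the gene targeted in the knockout arm, encodes a protein that binds histones and inhibits protein phosphatase 2A. It was present in all WT libraries, at 1021 and 1061 CPM in set 1 and 1133, 1296, 1367 and 1539.7 CPM in set 2, and was not called (log2 difference 0.36, adjusted p = 0.059). It passed in 3 of its 19 alternative settings, among them without set 2 replicate 1 (adjusted p = 0.039). Libraries labelled KO held 18.8 to 27.7 CPM in set 1 and 284 to 593 CPM in set 2. Set shares 70.1% of its 3′ words with other genes, so its counts are uncertain, and the labels and files used here do not give which part of it was edited.

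Among p53 target genes most were not called, and the shares called higher were near that over all tested genes (21.0% higher, 18.7% lower). In the arrest and feedback list 5 of 23 tested members were higher and 2 lower in set 2, with a median log2 difference of 0.01. The 2 lower members were Gadd45a (log2 -1.85, adjusted p = 5.4e-06) and Pcna (-2.12, adjusted p = 1.0e-06), with 17.1% and 29.9% of their 3′ words shared. In the apoptosis and metabolism list 5 of 27 tested members were higher and 1 lower in set 2, with a median log2 difference of 0.06. Phlda3, an inhibitor of AKT signalling, was at 19.21 and 26 CPM in set 1 and 94.7, 101, 115 and 123 CPM in set 2 (log2 difference 2.27, SE 0.23, adjusted p = 1.2e-06), and Bax, a killer protein of the mitochondrial death pathway, at 20.1 and 26 CPM in set 1 and 149, 123, 117 and 123 CPM in set 2 (log2 difference 2.47, SE 0.22, adjusted p = 3.1e-07), with the same direction in KO (2.06, adjusted p = 1.1e-10 and 2.22, adjusted p = 7.2e-06). For Bax, 17.1% of its 3′ words are shared. Ccnd2, a G1 cyclin, was at 45.4 and 42.1 CPM in set 1 and 167, 148, 134 and 151 CPM in set 2 (log2 difference 1.77, SE 0.19, adjusted p = 2.0e-06). By contrast Cdkn1a (p21), the main arrest gene downstream of p53, was at 40.2 and 64.5 CPM in set 1 and 60.5, 87.6, 64.2 and 86.3 CPM in set 2 and was not called (0.51, adjusted p = 0.099). It passed in 3 of its 20 alternative settings, among them without set 1 replicate 2 (adjusted p = 0.036). Ccng1 was not called at 171 and 148 CPM in set 1 and 145, 167, 153 and 192 CPM in set 2 (0.04, adjusted p = 0.86), and Pmaip1 (Noxa) was lower (-1.05, adjusted p = 0.0012). Trp53 was at 130.1 and 228 CPM in set 1 and 135, 117, 109 and 102 CPM in set 2 (-0.63, adjusted p = 0.019). Its sets overlapped, and the call was lost without set 1 replicate 2, where the log2 difference was -0.17 and the adjusted p 0.55.

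The transcription factors of pluripotency were lower in set 2 in part. Nanog stood at 262 and 212 CPM in set 1 and 136, 111, 158 and 107 CPM in set 2 (log2 difference -0.88, SE 0.18, adjusted p = 9.5e-04) and Sox2 at 809 and 717 CPM in set 1 and 503, 451, 471 and 423 CPM in set 2 (log2 difference -0.72, SE 0.13, adjusted p = 4.8e-04). Zfp42 (Rex1), a marker of the naive state, was at 378 and 375 CPM in set 1 and 195, 182, 236 and 189 CPM in set 2 (log2 difference -0.90, SE 0.15, adjusted p = 1.6e-04). For these 3 genes every set 2 library lay below both set 1 libraries. Pou5f1 was lower too (log2 -1.37, adjusted p = 0.013, with 32.4% of its 3′ words shared), whereas Esrrb was not called at 238 and 329 CPM in set 1 and 343, 301, 373 and 333 CPM in set 2 (0.26, adjusted p = 0.22, with an adjusted p of 0.039 without set 1 replicate 2). Sall1, a partner of Nanog, was higher at 150.2 and 142 CPM in set 1 and 507, 431, 478 and 532 CPM in set 2 (log2 difference 1.73, SE 0.16, adjusted p = 4.1e-07). Over the list of core and naive genes, 8 of 47 tested members were higher and 15 lower in set 2, with a median log2 difference of -0.11, against 21.0% and 18.7% over all genes. Formative and primed genes, active after naive pluripotency ends, included Fgf8 with 2 counts in set 1 and 179 in set 2, a count ratio of 14.5 with a 95% counting interval of 3.96 to 121. Fgf5 had too few counts to be tested, with 0.873 and 1.79 CPM in set 1 and 3.64, 4.87, 5.07 and 13 CPM in set 2. In that list 6 of 26 tested members were higher and 3 lower in set 2, with a median log2 difference of 0.05.

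Several genes of this network split set 2 by library rather than by code. Klf4 stood at 374 and 300.2 CPM in set 1 and 597, 299, 509 and 296 CPM in set 2, so replicates 1 and 3 were high and replicates 2 and 4 low. Tbx3 showed the same split at 189 and 188 CPM in set 1 and 316, 91.2, 318 and 104 CPM in set 2, and Klf2 at 393 and 421 CPM in set 1 and 429.9, 247, 430.3 and 233 CPM in set 2. Socs3, the feedback inhibitor of LIF signalling, was opposite, with 137 and 125 CPM in set 1 and 5.83, 51.1, 11.9 and 66.6 CPM in set 2, all of set 2 below set 1. None of these 4 genes was called over all 4 set 2 libraries (adjusted p between 0.14 and 0.88). Socs3 was called lower in 5 of its 20 alternative settings, among them with only replicates 1 and 3 of set 2 (adjusted p = 6.3e-09) and with only replicates 2 and 4 (2.5e-04). Klf4 was called higher with replicates 1 and 3 only (0.0026) and Klf2 lower with replicates 2 and 4 only (0.001). With only replicates 1 and 3 of set 2, Tbx3 was higher than in set 1 (log2 0.75, adjusted p = 0.0012). With only replicates 2 and 4 it was lower (log2 -0.94, adjusted p = 4.1e-04). The split of these 4 genes was seen in the same libraries, so these p-values add no support for it. Were each pair repeats of 1 culture, the p-values would also overstate the replication.

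Otx2, a factor of the primed state, stood at 182 and 158 CPM in set 1 and 149, 311, 138 and 293 CPM in set 2, high in replicates 2 and 4. The same 2 libraries were high for Lefty1, an inhibitor of Nodal, at 114 and 143 CPM in set 1 and 56.8, 154, 65 and 134 CPM in set 2, and for Dnmt3b, a DNA methyltransferase, at 434 and 472 CPM in set 1 and 681, 1146, 647 and 1234 CPM in set 2. The Dnmt3b call (1.03, adjusted p = 0.0091) was lost without set 1 replicate 1 (adjusted p = 0.21) and without set 1 replicate 2 (0.14). Lefty2 was called (0.64, adjusted p = 0.016), with 114 and 104 CPM in set 1 and 147, 185, 136 and 213 CPM in set 2, and lost the call without set 1 replicate 1 (0.075) or replicate 2 (0.10). Lefty1 and Lefty2 each have 22.0% of their 3′ words shared with other genes. The second principal component, with 10.5% of the variance, placed replicates 1 and 3 on 1 side and 2 and 4 on the other.

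**Figure D3:**
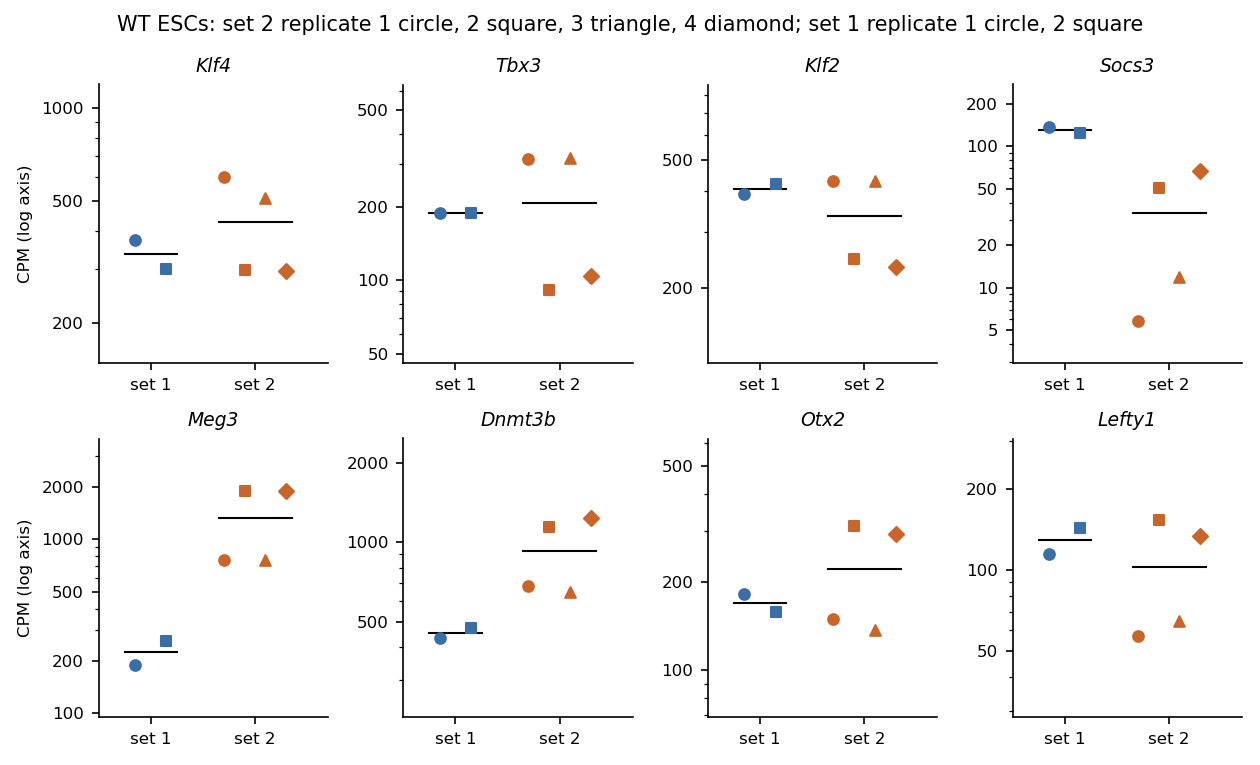
Level of 8 genes in each WT library, in CPM on log axes that differ between panels, with set 1 in blue, set 2 in orange and set means as lines. In set 2, replicates 1 (circle) and 3 (triangle) pair up, as do 2 (square) and 4 (diamond); for Tbx3 the first pair lies above and the second below set 1.

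Several genes of the primitive streak and mesoderm were near 0 in set 1 and higher in set 2. T (brachyury), the mark of the primitive streak, had 0 counts in set 1 and 99 in set 2, at least 5.35-fold higher than the floor of 3 counts over set 1 (adjusted p = 7.5e-04). Hand2, a mesoderm factor, had 0 counts in set 1 and 148 in set 2, at least 8.004-fold higher (adjusted p = 1.4e-04). Lhx1 had 0 and 122 counts, at least 6.6-fold higher (adjusted p = 4.9e-04). The streak and mesoderm list holds 28 genes, of which 11 had enough counts to test. These 3 genes, at 0 in set 1, entered the test through set 2 alone, so the tested members lean to higher ones. Of the 11, 7 were higher and 2 lower in set 2, a share not comparable with that over all genes. Their median log2 difference was 1.21, and the same with T, Hand2 and Lhx1 at their bounds. The summed level of the list did not rise, at 786 and 752 CPM in set 1 and 632 to 821 CPM in set 2, most of it from Tcf15, which was not called (log2 -0.18, adjusted p = 0.38). Bmp4 and Gata4 were the 2 members called lower. In primitive and visceral endoderm 7 of 25 tested members were higher and 5 lower in set 2, with a median log2 difference of 0.01. In neuroectoderm 5 of 17 tested members were higher and 0 lower in set 2, with a median log2 difference of 0.06. The call for T was lost in 1 of its 14 alternative settings, the fit of all 16 libraries (adjusted p = 0.059). In KO the streak and mesoderm list had 6 higher and 2 lower of 15 tested, median 0.53 (25.5% and 23.7% over all genes in KO). Foxa2, of endoderm, stood at 9.61 and 7.17 CPM in set 1 and 33.5, 52.9, 38.2 and 49.7 CPM in set 2 (log2 difference 2.36, SE 0.33, adjusted p = 3.6e-05), while Sox17 was not called (0.47, adjusted p = 0.39).

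Among Wnt/β-catenin targets, 12 of 24 tested members were higher and 5 lower in set 2, with a median log2 difference of 0.66. Sp5, a direct target, was higher (log2 2.28, adjusted p = 0.014), as was Ctnnb1, which encodes β-catenin (log2 0.81, adjusted p = 0.049). Lgr5, a receptor for Wnt enhancers, was lower at 24.5 and 8.06 CPM in set 1 and 0, 0.608, 1.2 and 1.93 CPM in set 2 (-3.84, adjusted p = 1.5e-04), a call lost without set 1 replicate 1 (adjusted p = 0.060). Myc, a growth factor-responsive transcription factor, was lower as well at 38.4 and 53.8 CPM in set 1 and 10.9, 7.3, 18.9 and 9.65 CPM in set 2 (log2 difference -1.83, SE 0.32, adjusted p = 3.6e-04). In KO the list showed 9 higher and 2 lower of 27 tested, median 0.15 (25.5% and 23.7% over all genes in KO).

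Id3, an inhibitor of differentiation that BMP signals induce, stood at 47.2 and 52 CPM in set 1 and 573, 521, 644 and 569 CPM in set 2 (log2 difference 3.54, SE 0.18, adjusted p = 3.2e-10). All set 2 libraries were above 500 CPM. The KO libraries moved likewise, with 223 ± 20.6 CPM in set 1 (SD, n = 4) and 1284 ± 275 CPM in set 2 (SD, n = 6). Its relative Id1 was at 76 and 110.2 CPM in set 1 and 125, 134, 125 and 171 CPM in set 2 (0.58, adjusted p = 0.028), a call lost without set 1 replicate 1 (adjusted p = 0.33) or set 2 replicate 4 (0.070). Bmp4, a ligand of this pathway, was lower at 91.7 and 60.9 CPM in set 1 and 22.6, 10.9, 27.7 and 11.1 CPM in set 2 (log2 difference -1.98, SE 0.33, adjusted p = 3.6e-04). Of BMP and Id genes, 3 of 14 tested members were higher and 1 lower in set 2, with a median log2 difference of 0.17. The ERK feedback inhibitor Spry4 was at 178 and 116 CPM in set 1 and 32.8, 23.1, 38.8 and 42.9 CPM in set 2 (log2 difference -2.07, SE 0.22, adjusted p = 3.9e-06), and its fall was deeper than in KO (-1.4 on the log2 scale, adjusted p = 0.034). Over the FGF and ERK feedback list 6 of 24 tested members were higher and 5 lower in set 2, with a median log2 difference of -0.02. The activin antagonist Fst was at 2.62 and 2.69 CPM in set 1 and 16, 17, 19.9 and 14 CPM in set 2 (log2 difference 2.66, SE 0.46, adjusted p = 2.7e-04), and Smad7, an inhibitor of TGF-β signalling, at 153 and 115 CPM in set 1 and 51, 52.3, 55.4 and 42.9 CPM in set 2 (log2 difference -1.4, SE 0.18, adjusted p = 1.6e-05).

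Genes that degrade or answer to retinoic acid were among the most different. Cyp26b1, a retinoic acid hydroxylase, had 3 counts in set 1 and 535 in set 2, a count ratio of 28.9 with a 95% counting interval of 9.85 to 141. Its levels were 0 and 2.69 CPM in set 1 and 37.2, 42.6, 37.6 and 63.7 CPM in set 2. Cyp26a1, whose promoter with the direct repeat is printed above, stood at 0.873 and 1.79 CPM in set 1 and 13.1, 28.6, 26.7 and 25.1 CPM in set 2, a count ratio of 17.1 with a 95% counting interval of 5.81 to 83.6. Nr2f2, an orphan nuclear receptor, was at 0.873 and 0.896 CPM in set 1 and 31.3, 30.4, 30.01 and 27 CPM in set 2, a count ratio of 30.3 with a 95% counting interval of 8.34 to 251. Meis2, a homeobox factor, was at 0 and 4.48 CPM in set 1 and 36.4, 45.6, 39.5 and 49.7 CPM in set 2 (log2 difference 4.24, SE 0.51, adjusted p = 8.5e-06). No set 1 library reached any set 2 library for these 4 genes, but this was a condition of the rule that named them. Set 2 also holds 3 libraries whose titles name a 4d RA treatment, which are not used here. The KO libraries showed the same direction, at log2 4.6, adjusted p = 8.4e-10 for Cyp26b1 and 1.3, adjusted p = 0.0021 for Cyp26a1.

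Further genes of this kind were looked up after these values were seen. Nr2f1 had 0 counts in set 1 and 177 in set 2, at least 9.57-fold higher (adjusted p = 4.8e-05). Meis1 was at 3.49 and 0.896 CPM in set 1 and 13.8, 9.12, 14.7 and 8.2 CPM in set 2 (2.39, adjusted p = 0.0045, or 0.072 without set 1 replicate 2). In contrast Rarb, a receptor gene that retinoic acid is known to induce, had 0 counts in set 1 and 3 in set 2. Dhrs3 had 1 count in set 1 and 40 in set 2, a count ratio of 6.49 with a 95% counting interval of 1.1 to 263, and was not tested. Rarg, another retinoic acid receptor, was lower at 179 and 169 CPM in set 1 and 86.7, 79.1, 111 and 84.9 CPM in set 2 (log2 difference -0.93, SE 0.17, adjusted p = 3.8e-04), and Crabp1 and Crabp2 were not called (-0.63, adjusted p = 0.094 and -0.32, adjusted p = 0.60). Crabp1 passed, as lower, in 3 of its 20 alternative settings, among them without set 2 replicate 1 (adjusted p = 0.02). Gas1, a hedgehog co-receptor, had 1 count in set 1 and 213 in set 2, a count ratio of 34.6 with a 95% counting interval of 6.14 to 1371.

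Others with large differences were Frzb, a secreted Wnt inhibitor, at 0.873 and 0.896 CPM in set 1 and 13.1, 23.1, 17.7 and 35.2 CPM in set 2 (a count ratio of 21.3 with a 95% counting interval of 5.83 to 176), and Crispld2 at 0.873 and 1.79 CPM in set 1 and 16, 19.5, 20.5 and 34.7 CPM in set 2 (a count ratio of 15.1 with a 95% counting interval of 5.13 to 73.9). Dqx1, which encodes a helicase-like protein, was at 18.3 and 29.6 CPM in set 1 and 587, 986, 644 and 987 CPM in set 2 (log2 difference 5.06, SE 0.32, adjusted p = 5.5e-08). Pigt, of the enzyme that attaches GPI anchors, stood at 6.99 and 4.48 CPM in set 1 and 174, 129.5, 140.1 and 107 CPM in set 2 (log2 difference 4.56, SE 0.32, adjusted p = 2.3e-08). The KO libraries showed these 2 differences at log2 4.5, adjusted p = 2.6e-12 and 4.05, adjusted p = 7.6e-05. The sets did not overlap for any of these 4 genes, which was again a condition of the rule that named them. Olfr1181, named as an odorant receptor, had 3 counts in set 1 and 254 in set 2, a count ratio of 13.7 with a 95% counting interval of 4.65 to 67.1, with 25.5% of its 3′ words shared.

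Imprinted genes, which are expressed from 1 parental allele and are known to vary among ESC cultures, were more often called higher than lower in set 2. In that list 12 of 37 tested members were higher and 3 lower in set 2, with a median log2 difference of 0.34. Dlk1, a Notch-related growth regulator from the paternal allele, stood at 14 and 12.5 CPM in set 1 and 157, 224, 163 and 206 CPM in set 2 (log2 difference 3.81, SE 0.26, adjusted p = 1.1e-08). Meg3, the maternal transcript of the same cluster, was at 189.5 and 261 CPM in set 1 and 765, 1887, 759 and 1901 CPM in set 2, where replicates 2 and 4 were high, with 25.9% of its 3′ words shared. Its call (2.56, adjusted p = 0.016) was lost without set 1 replicate 1 (adjusted p = 0.20) or replicate 2 (0.13). Peg3, a paternal zinc-finger gene, was at 47.2 and 34.9 CPM in set 1 and 145, 200.1, 167 and 179 CPM in set 2 (log2 difference 2.07, SE 0.21, adjusted p = 1.1e-06), and its difference exceeded that in KO by 1.5 on the log2 scale, adjusted p = 0.011. H19 had 2 counts in set 1 and 95 in set 2, a count ratio of 7.71 with a 95% counting interval of 2.08 to 64.6, and was at adjusted p = 0.053 without set 1 replicate 1. Igf2 had 0 counts in set 1 and 4 in set 2.

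Dnmt3l, the cofactor of the de novo methyltransferases, stood at 487 and 669 CPM in set 1 and 1591, 1681, 1479 and 1655 CPM in set 2 (log2 difference 1.47, SE 0.16, adjusted p = 2.5e-06). Its list, the DNA methylation machinery, did not share that direction: 4 of 22 tested members were higher and 5 lower in set 2, with a median log2 difference of -0.11. Gadd45a (log2 -1.85, adjusted p = 5.4e-06) and Mbd4 (-1.6, adjusted p = 4.3e-04) were among the lower members. Of the germline genes that promoter methylation is known to silence, 2 of 18 tested members were higher and 7 lower in set 2, with a median log2 difference of -0.51. Smc1b, a meiotic cohesin, was at 42.8 and 17.9 CPM in set 1 and 5.83, 9.12, 5.6 and 5.31 CPM in set 2 (log2 difference -2.27, SE 0.37, adjusted p = 1.8e-04), while Tex19.1 was higher at 112 and 215 CPM in set 1 and 485, 418, 478 and 422 CPM in set 2 (log2 difference 1.46, SE 0.21, adjusted p = 7.7e-05). In KO 6 of 22 tested germline genes were higher and 6 lower, near the 25.5% and 23.7% over all genes in KO.

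More mitotic genes were called lower than higher in set 2. In that list 10 of 45 tested members were higher and 20 lower in set 2, with a median log2 difference of -0.46, against 18.7% lower over all tested genes. Hmmr, a spindle protein, stood at 375 and 277 CPM in set 1 and 96.2, 88.8, 96.8 and 94.5 CPM in set 2 (log2 difference -1.79, SE 0.15, adjusted p = 2.0e-07), and Bub1, a spindle checkpoint kinase, at 171 and 139.8 CPM in set 1 and 45.9, 46.2, 51.2 and 55.5 CPM in set 2 (log2 difference -1.64, SE 0.17, adjusted p = 1.6e-06). The list had 15 members with an unshared 3′ end, 6 higher and 6 lower, median -0.20. Not all members were lower: Plk1 (log2 1.27, adjusted p = 1.1e-04) and Cdc20 (1.24, adjusted p = 2.4e-05) were higher. For DNA replication genes 10 of 44 tested members were higher and 10 lower in set 2, with a median log2 difference of -0.10. Rfc5 of the clamp loader was higher at 158 and 170.2 CPM in set 1 and 719, 646, 632 and 679 CPM in set 2 (log2 difference 2.03, SE 0.15, adjusted p = 4.2e-08), with 33.4% of its 3′ words shared, whereas Pcna, the clamp itself, was lower at 216 and 123 CPM in set 1 and 41.5, 33.4, 42.4 and 37.1 CPM in set 2 (log2 difference -2.12, SE 0.21, adjusted p = 1.0e-06), with 29.9% of its 3′ words shared.

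In glycolysis and hypoxia 6 of 40 tested members were higher and 14 lower in set 2, with a median log2 difference of -0.25. The glucose transporter Slc2a1 was at 1081 and 964 CPM in set 1 and 211, 309.6, 231 and 293 CPM in set 2 (log2 difference -1.97, SE 0.16, adjusted p = 9.1e-08), with no shared 3′ word. Ldha, lactate dehydrogenase, was at 1421 and 958 CPM in set 1 and 334, 542, 378 and 487 CPM in set 2 (log2 difference -1.45, SE 0.19, adjusted p = 4.0e-05). Of genes that ATF4 induces when amino acids run short, 2 of 34 tested members were higher and 15 lower in set 2, with a median log2 difference of -0.48. That list had 17 members with an unshared 3′ end, 2 higher and 6 lower, median -0.13, and the glycolysis list 19 members with an unshared 3′ end, 3 higher and 5 lower, median -0.06. Asns, asparagine synthetase, stood at 177 and 120.1 CPM in set 1 and 35.7, 46.2, 40.3 and 43.4 CPM in set 2 (log2 difference -1.84, SE 0.19, adjusted p = 1.5e-06), and Atf5 was an exception at 12.2 and 8.96 CPM in set 1 and 48.1, 45, 43.6 and 48.2 CPM in set 2 (log2 difference 2.11, SE 0.27, adjusted p = 1.7e-05). In KO the glycolysis list showed 15 higher and 11 lower of 41 tested, median -0.06. The ATF4 list there had 4 higher and 20 lower of 34 tested, median -0.51. Over all genes in KO the shares were 25.5% higher and 23.7% lower. In cholesterol and fatty acid synthesis 6 of 34 tested members were higher and 6 lower in set 2, with a median log2 difference of 0.09, among them Mvd at 46.3 and 57.3 CPM in set 1 and 239, 211, 207 and 218 CPM in set 2 (log2 difference 2.07, SE 0.18, adjusted p = 2.4e-07). The epithelial adhesion gene Cdh1 (E-cadherin) was at 831 and 1078 CPM in set 1 and 3251, 3929, 3019 and 4527 CPM in set 2 (log2 difference 1.95, SE 0.19, adjusted p = 1.0e-06) and Jup, plakoglobin of the same junctions, at 67.3 and 96.8 CPM in set 1 and 641, 529, 715 and 573 CPM in set 2 (log2 difference 2.91, SE 0.20, adjusted p = 1.5e-08).

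The lowest genes in set 2 were of another kind. Ribosomal protein genes, whose mRNAs are among the most abundant in ESCs and have many processed pseudogenes, were mostly lower. Of these, 4 of 74 tested members were higher and 60 lower in set 2, with a median log2 difference of -2.95. Rps29 stood at 2393 and 2701 CPM in set 1 and 17.5, 24.9, 16.4 and 17.4 CPM in set 2 (log2 difference -7.1, SE 0.17, adjusted p = 3.8e-14) and Rpl3 at 863 and 1187 CPM in set 1 and 9.47, 7.91, 5.74 and 12.1 CPM in set 2 (log2 difference -6.99, SE 0.23, adjusted p = 1.4e-12). Gapdh, a glycolytic enzyme, was at 415 and 375 CPM in set 1 and 2.91, 0.608, 1.73 and 2.41 CPM in set 2 (log2 difference -7.71, SE 0.23, adjusted p = 2.2e-13), below 3 CPM in every set 2 library. Aldoa, of the same pathway as Gapdh, was at log2 -1.01, adjusted p = 4.6e-04. KO libraries showed the same differences, at log2 -6.94, adjusted p = 2.1e-18 for Rps29 and -6.62, adjusted p = 1.5e-07 for Gapdh, and a median of -2.90 over the ribosomal list.

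These differences followed how much of a gene's 3′ end occurs elsewhere. The measure was the percent of 31-base words in the last 400 bases of a gene's transcripts that also occur in another gene's transcripts, in GENCODE vM21 on GRCm38. Among genes with no shared word the median log2 difference was 0.06 and 15.0% were lower. Above 50 and up to 80% shared the median was -0.58 and 43.4% were lower. Above 80% shared it was -1.53 and 61.9% were lower, and in KO -1.58 and 61.4%. Of the 76 genes below a log2 difference of -4, 69 had over 20% of words shared (90.8%, against 13.04% of all tested genes), 39 were ribosomal protein genes or their copies by symbol, and 4 had no shared word. None of the 74 tested ribosomal protein genes had an unshared 3′ end. Reads that map to several places are not counted under the default options of the counter, and the count file headers of the 2 sets name input alignments in different ways. No label or header used here says whether the alignment differed between sets, and its part in the differences was not tested.

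**Figure D4:**
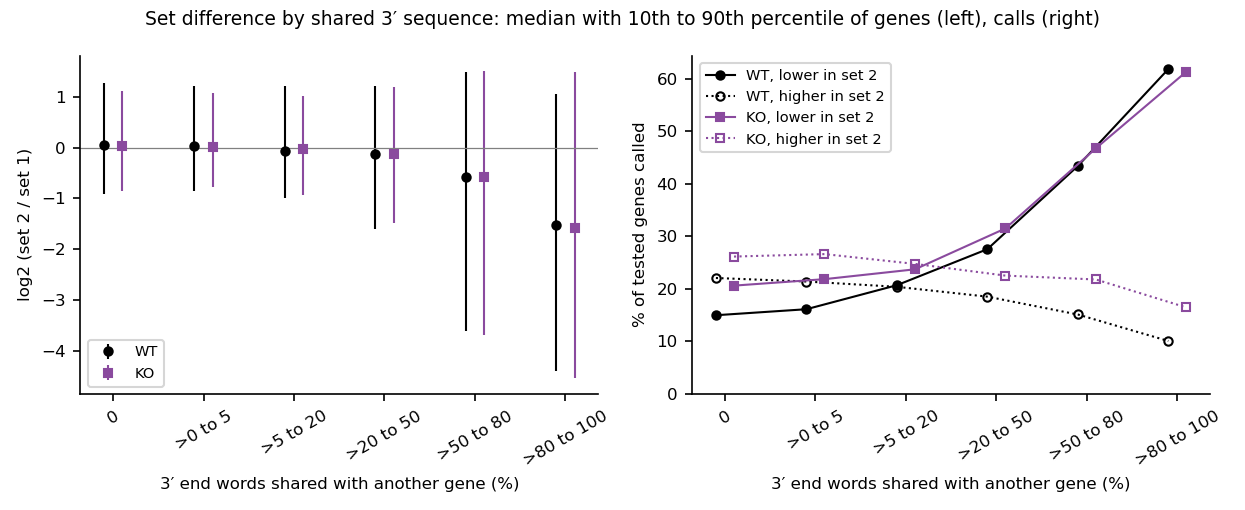
Left, median log2 set difference (points) with the 10th to 90th percentile of genes (bars) by percent of 3′ end words shared with other genes, in WT and KO. Right, percent of tested genes called lower (solid) or higher (dotted); calls of lower genes climb from 15.0% with no shared word to 61.9% above 80% in WT, and to 61.4% in KO.

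Genes with an unshared 3′ end, meaning no shared word and no exon of another gene over it, numbered 4634 of the tested genes. Of them 22.0% were higher and 15.0% lower in set 2, together 37.0%. Fitted and adjusted alone, 927 were higher and 772 lower. Acta2, Mdm2, Timp2, Id3, Dlk1, Nanog, Sox2, Zfp42, Slc2a1 and Asns are in this group, and none of them shares a 3′ word with another gene. The fibroblast matrix list had 12 members with an unshared 3′ end, 7 higher and 0 lower, median 1.87. The contractile list had 9 members with an unshared 3′ end, 5 higher and 1 lower, median 0.51. The core and naive list had 22 members with an unshared 3′ end, 4 higher and 8 lower, median -0.52.

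S100a8 and S100a9, which encode the calprotectin subunits that fill neutrophils, were present in set 1 and at or near 0 in set 2. S100a9 stood at 21 and 60.9 CPM in set 1 and 0, 0, 0 and 0 CPM in set 2, at least 189-fold lower in set 2 than the 92 counts of set 1 when set against a floor of 3 counts over set 2 (adjusted p = 9.9e-06). S100a8 had 51 counts in set 1 and 1 in set 2, a ratio of 314.3 with a 95% counting interval of 53.9 to 12656. Neither gene shares a 3′ word with another. After this was seen, 11 more genes known from neutrophils, their precursors or white blood cells in general were looked up, among them Retnlg, Mmp8, Cxcr2, Lcn2, Ltf and Ngp. Of the 13 genes, 10 had counts in each set 1 WT library, with 57 and 159 counts in all. Set 2 WT libraries had 0, 0, 2 and 2 counts, although each was deeper. All 4 KO libraries of set 1 held these genes too, with 137 to 505 counts, and the 6 KO libraries of set 2 had 1 or 2 counts each. Elane and Mpo, genes of neutrophil precursors, and Camp, another of the 13 genes, were at 0 in set 1 WT. The part of such RNA in other set differences was not tested. Mir6236, annotated as a microRNA gene, was at 45.4 and 83.3 CPM in set 1 and 0, 0, 0.400 and 0 CPM in set 2, another gene near 0 in set 2 in both genotypes (KO log2 -8.98, adjusted p = 5.7e-13).

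The same set contrast in KO libraries shares no library with the WT contrast. It also compares KO libraries whose Set levels differed, at a mean of 23.5 CPM in set 1 and 456 CPM in set 2. Set level and set cannot be told apart in KO, which limits both the shared calls and the WT minus KO differences below. The KO contrast called 5372 of 10937 tested genes (49.1%), 2785 higher (25.5%) and 2587 lower (23.7%). Of 2098 genes called higher in WT and tested in both, 1758 were called higher in KO, which is 83.8% of the WT calls and 67.1% of the KO calls. Of 1844 genes lower in WT, 1386 were lower in KO (75.2% and 59.3%), and 19 of the higher and 2 of the lower WT genes were called the opposite way. The difference of the 2 set contrasts was tested directly for 11134 genes and passed for 71 (0.638%). The signed log2 difference, WT minus KO, was above 0 for 56 (0.503%) and below 0 for 15 (0.135%). Acta2, Col1a1, Tpm1, Csrp1, Timp2, Lgals1, Krt8, Krt18, Fst, Nes and Sparc were among those above 0. For Nes, a neural and mesenchymal filament gene, WT held 9.61 and 9.86 CPM in set 1 and 25.5, 24.3, 23.9 and 28.5 CPM in set 2 (log2 difference 1.38, SE 0.31, adjusted p = 0.002), and the KO means were 65.3 ± 15.9 CPM in set 1 (SD, n = 4) and 38.5 ± 7.51 CPM in set 2 (SD, n = 6). Sparc, a matrix glycoprotein, was at 419 and 392 CPM in set 1 and 675, 619, 657 and 687 CPM in set 2 in WT (log2 difference 0.70, SE 0.14, adjusted p = 7.4e-04).

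**Figure D5:**
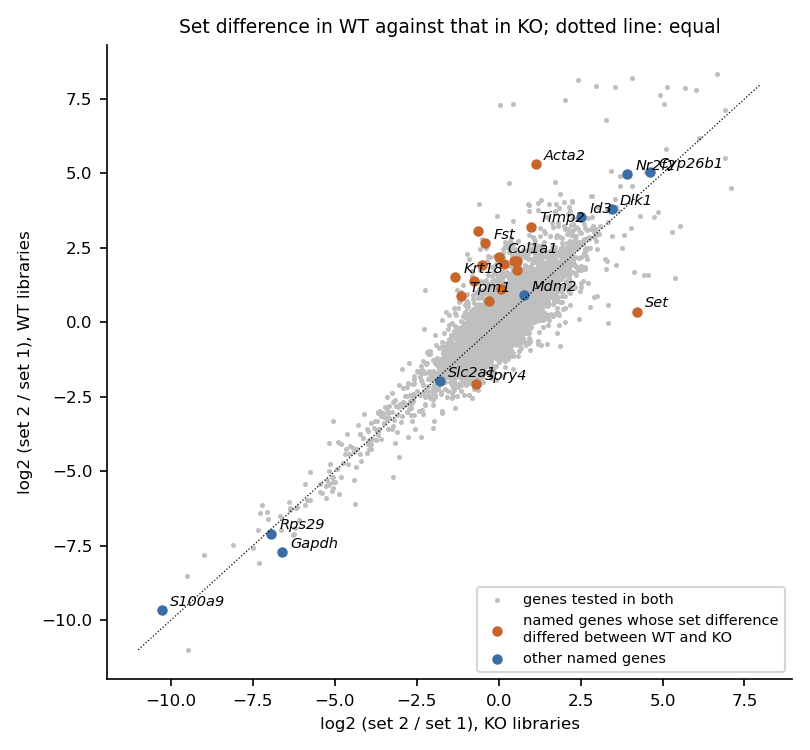
Log2 set difference of each gene tested in both genotypes (grey), with KO libraries on the x axis and WT libraries on the y axis. Orange points are named genes whose set difference differed between genotypes, blue points are other named genes, and the dotted line marks equal differences; Acta2 lies at 1.14 in KO and 5.33 in WT. Values of genes at 0 in a set depend on the prior count of the fit.

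Median log2 differences per chromosome ran from -0.13 on chromosome 14 to 0.10 on chromosome 11.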

How the data were processed

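QuantSeq 3′ libraries of R1 ESCs were made from 500 ng of RNA, per the labels' protocols. The deposited counts are unnormalized reads per gene made by the authors with featureCounts 1.6.0 on the Ensembl 97 annotation, per the file headers. STAR 2.5.4b and Subread 2.0.0 are named in the submitters' processing notes. The headers give default options, under which strand is ignored and reads mapping to several places are not counted, so overlapping and near-identical genes are uncertain.

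X and Y genes were left out, low genes were removed by filterByExpr (minimum count 10, minimum total 15), libraries were scaled by TMM, and sets were compared with edgeR 4.0.16 (quasi-likelihood F test, robust, Benjamini-Hochberg adjustment, threshold 0.05) in R 4.3.3. Every adjusted p in the text comes from this test unless DESeq2 1.42.0 is named. WT and KO were fitted and scaled separately, with line as a term in KO, and the difference of both contrasts was tested in 1 fit of all 16 libraries. Simulated data for the WT comparison had 200 changed genes among 10086, with equal numbers raised and lowered. Of these, 52% of 2-fold and 82% of 4-fold changes were recovered, and 7.59% of calls were false. The real comparison called far more genes (39.7%), and the simulated libraries were independent, so these rates need not hold for the data.

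Counting intervals and the floor of 3 counts cover counting error only, and reads carry no molecular identifiers. Genes were named by rule: the 3 markers, a list of key genes, the 12 highest and 12 lowest called genes whose sets do not overlap (at least 20 CPM in the higher set), and up to 4 called members with the smallest adjusted p in each list with at least 4. Other genes named, the retinoid-linked and neutrophil-known genes among them, were chosen after their values were seen. The members and lists were chosen with earlier results of these data known. Replicate numbers did not pair the libraries: deviations from set means of same-numbered libraries correlated at 0.035 and 0.040. Promoters were matched by symbol to RefSeq. Alternatives covered scaling, filters, tool, depth, replicate block, each library left out, and unshared 3′ ends only, the last chosen after seeing the data.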

Additional observations from a re-analysis of the deposited data

Results flagged for a closer look

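The set difference differed between WT and KO, by a test of that difference, for 71 genes, and these include 17 of the genes named by rule. In KO the set difference cannot be told apart from the difference in Set level. On the log2 scale, WT minus KO, the values were 4.17 for Acta2, 2.15 for Col1a1, 2.02 for Tpm1 and 1.79 for Csrp1, all of the contractile or matrix lists. They were 2.4 for Krt8 and 2.82 for Krt18, the simple-epithelium keratins, and 1.02 for Cldn4, a tight-junction gene. The matrix and growth regulators Timp2, Lgals1, Sparc and Fst had 2.21, 1.58, 0.976 and 3.06. The imprinted genes H19 and Peg3 had 3.66 and 1.5. Nes, a filament gene, had 2.12 and Ccnd2, a G1 cyclin, 1.2. The value was negative for Set, at -3.88, which rose in KO, and for Spry4, at -1.40, which fell further in WT.

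In set 2 a single library stood far from the other 3 in 11 of 194 groups of 4 values, and chance gives about 1 in 20. The total count of replicate 3, 7941952, was one of these. Replicate 4 was high for Fgf5 at 13.02 CPM, replicate 2 for T at 12.2 CPM, for Smc1b at 9.12 CPM and for Rps29 at 24.9 CPM, and replicate 1 for Tubb3 at 104.2 CPM and for Rps6 at 5.10 CPM. In replicate 3, the deepest library, Igf2 and the pseudogene Rps6-ps4 had 0.534 CPM each, Mir6236 0.400 CPM and S100a8 0.133 CPM, where the other 3 libraries lay close together or at 0.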

How the results depend on the processing

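The WT count of 4001 genes lay between 3024 and 4332 in the alternatives of scaling, tool, filter, code and library choice. It fell to 2363 with libraries thinned to 1 depth, to 1699 when only genes with an unshared 3′ end were fitted, and to 2269 with a 2-fold minimum. Leaving out 1 library gave 2173 to 3817, the lowest without set 1 replicate 1. The KO count of 5372 lay between 4326 and 5365 with 1 library left out, and was 2395 with unshared 3′ ends only. With the replicate block, the counts were 3537 in WT and 4516 in KO. Replicate numbers did not pair the libraries. Among named genes Tbx3 reversed to -0.94 with only the second library of each code in set 2. Of the named genes, 16 lost their call without set 1 replicate 1, 8 without set 1 replicate 2, 9 with thinning and 2 with the replicate block. The replicate block gave Socs3 a call (log2 -2.36), which has the same limit and adds no support. Depth limits genes near the floor of 2.78 CPM in set 1. The causes of these changes were not tested, beyond the fewer genes, samples or counts that thinning, left-out libraries and unshared 3′ ends leave.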
